A study of Mus musculus with 6 samples.

Results

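The aryl hydrocarbon receptor gene, Ahr, lies on mouse chromosome 12, and the genes described here are its neighbours. The list held 39 symbols of genes whose start lies within 10 Mb of the Ahr start. The count table of 23420 rows held 38 of them, and Thap5 had no row. The list is not complete, since 83 genes of the table lie within this distance. The study asked what loss of AhR changes in activated B cells, and these genes lie close enough to Ahr to be inherited with its targeted allele.

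Splenic B cells came from 3 Ahr+/+ and 3 Ahr-/- mice, both labelled as C57Bl/6J in background. The Ahr-/- strain carries the Ahr tm1Bra allele in every cell of the body, and its name, B6.129, records a donor strain other than C57Bl/6J. All cultures received 10 µg/ml anti-IgM, which engages the B-cell receptor, together with IL-4 at 20 ng/ml, over 8 h, and all received 250 nM of the AhR ligand FICZ over the last 4 h. Mice were over 8 weeks old and matched for age and sex, per the study's methods, and polyA RNA was read from stranded libraries. Total counts lay between 22095096 and 53648787 per library, so that 3 counts, the floor used here, stood for 0.0559 to 0.136 CPM, counts scaled to a fixed library size (counting error only).

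AhR is a ligand-bound transcription factor. Without ligand it is held in the cytoplasm, and with ligand it enters the nucleus, pairs with ARNT and binds DNA at a short core motif, GCGTG, near genes such as Cyp1a1, which encodes a monooxygenase of xenobiotic metabolism. A gene can differ between mice with and without AhR because AhR acts on it, but a targeted allele also brings along a stretch of chromosome from the strain in which it was made. The nearer a gene lies to the allele, the less often crossing-over has separated them. Donor DNA next to Ahr was not measured here, and its part in any difference below cannot be told apart from that of the genotype.

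The neighbours have no common function. They include enzymes of metabolism and RNA, such as Nampt of NAD salvage and Dld of the pyruvate dehydrogenase complex. Others are vesicle and Golgi proteins such as Trappc12, Cog5 and Snx13, nuclear regulators such as Hdac9, Hbp1 and Ifrd1, signalling and cytoskeletal proteins such as Pik3cg, Dock4 and Scin, and matrix or adhesion proteins such as Pxdn, Lamb1 and Nrcam. Several of these genes sit head to head, with starts close together on opposite strands.

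The following stretches belong to the members that differed between genotypes and to the head-to-head pairs, and are shown because they hold the start regions of those genes. They are from RefSeq promoter windows on GRCm38.p6, each running from 250 bases before to 50 bases after a gene's start. Capitals mark the AhR core, GCGTG, or CACGC, which is the same motif read on the other strand. The first pair gives the 250 bases before the start of Pik3cg (chr12:32208660-32208909, minus strand) and of Hdac9 (chr12:34917096-34917345, minus strand), read on the gene's strand.
Pik3cg: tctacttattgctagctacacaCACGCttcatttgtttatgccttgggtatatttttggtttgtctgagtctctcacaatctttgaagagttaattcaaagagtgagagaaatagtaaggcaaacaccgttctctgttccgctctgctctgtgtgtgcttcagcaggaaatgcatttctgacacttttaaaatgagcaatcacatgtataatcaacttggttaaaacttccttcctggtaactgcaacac
Hdac9: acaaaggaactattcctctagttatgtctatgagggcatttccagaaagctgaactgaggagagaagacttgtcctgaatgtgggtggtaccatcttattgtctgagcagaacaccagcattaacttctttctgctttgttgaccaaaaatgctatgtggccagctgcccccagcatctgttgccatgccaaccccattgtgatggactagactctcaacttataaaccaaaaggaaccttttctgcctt

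For Trappc12, Pxdn and Dock4 the 2 annotations used place the start at different bases, so 29 bases around the core match are given on the gene's strand. They lie at chr12:28750426-28750454 (minus strand), chr12:29937959-29937987 (plus strand) and chr12:40445852-40445880 (plus strand). The match begins 42, 65 and 189 bases before the RefSeq start. Dock4 has another match that begins at base 11, with the RefSeq start as base 1, and is not printed. The bases printed for Dock4 lie inside Zfp277 in 1 of the 2 annotations.
Trappc12: ccgcggccagcaCACGCagacgcacaaac
Pxdn: agggggcggagcCACGCgcatgtgcacag
Dock4: agggagttcctaCACGCctatgctgtgcc

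Between the starts of 3 head-to-head pairs lies sequence that belongs to neither gene in either annotation. It is given on the plus strand for Acp1 and Sh3yl1 (chr12:30911613-30911667), Zfp277 and Dock4 (chr12:40445903-40445951) and Dus4l and Cog5 (chr12:31654827-31654868).
Acp1 to Sh3yl1: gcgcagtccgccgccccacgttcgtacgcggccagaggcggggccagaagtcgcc
Zfp277 to Dock4: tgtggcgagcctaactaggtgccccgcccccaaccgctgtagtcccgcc
Dus4l to Cog5: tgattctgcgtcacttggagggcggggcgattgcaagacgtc

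A window was found for 34 members, Tssc1 under its current name Eipr1, and none for Adi1, Rnaseh1, Bcap29, Lrrn3 and Thap5. The core motif occurred on either strand, overlapping matches included, in at least 1 window of 19 of the 34, or 55.9%. Over all 27025 genes in the promoter table this share was 35.2%, and over the 10034 of them tested for expression here it was 54.6%, near that of the members. Among the members that differed between genotypes 4 of 6 had a match (Trappc12, Pxdn, Pik3cg and Dock4), and Acp1 and Hdac9 had none in their windows. Of the members tested that did not differ, 12 of 24 had a match, with 5 in the window of Nampt. The printed Dock4 match is also the only match in the window of Zfp277, its head-to-head partner. That 1 site is thus counted both for a member that differed and for a member that did not. These are matches of letters, and binding was not measured.

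Most neighbours of Ahr were active in these B cells. Of the 38 members, 34 had at least 10 counts over the 6 libraries and were tested, and for 26 of these the mean was 100 normalized counts or more, which are counts brought to a common library size. Compared per length, as CPM per kb of annotated exon, Nampt had the highest level of the members, with a mean of 66.5 in Ahr+/+ and 64.8 in Ahr-/- B cells. Bzw2, a regulator of translation initiation, followed at 38.4 and 38.0, and Dld at 35.9 and 34.1. Ahr itself stood at 55.6 CPM per kb in Ahr+/+ and 38.7 in Ahr-/- B cells, above every member but Nampt. Dock4 was near the other end, at 0.0772 and 0.0395.

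**Figure D1:**
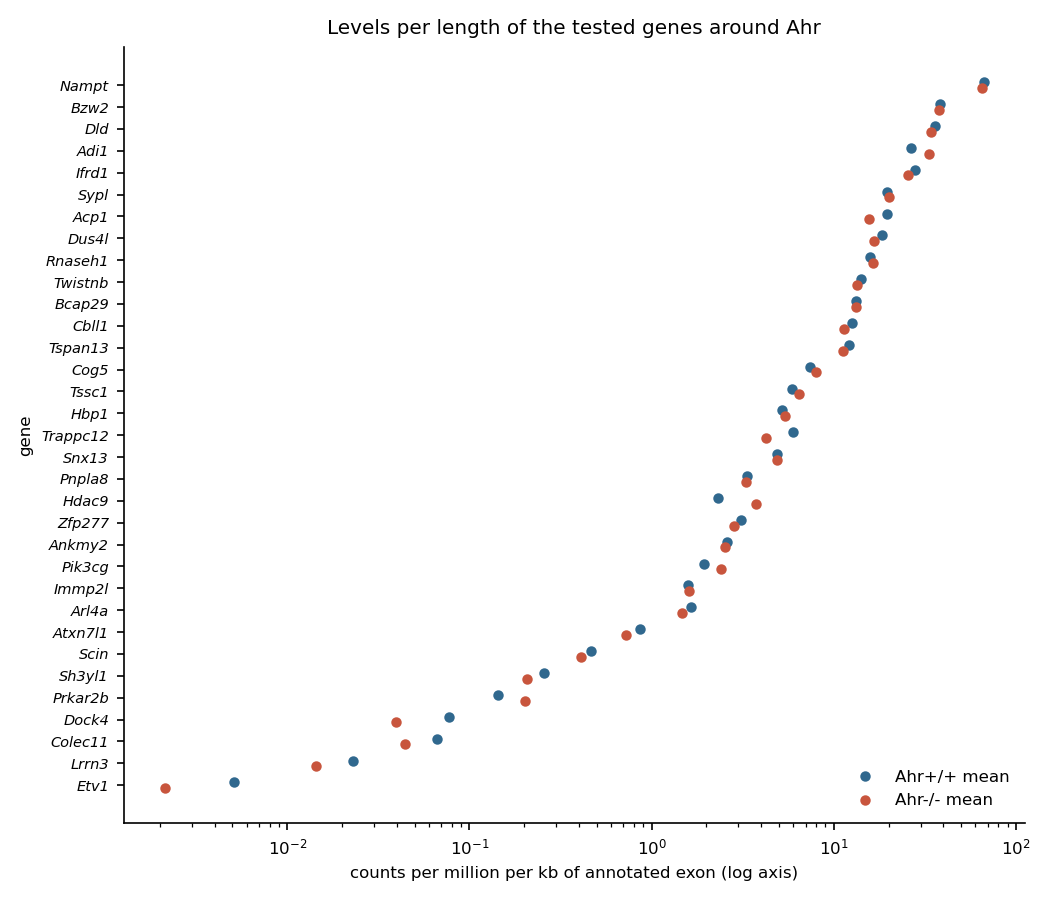
Mean level per length of tested members in Ahr+/+ (blue) and Ahr-/- (red) B cells, 3 libraries each, on a log axis of CPM per kb of annotated exon. Nampt is at the top with 66.5 and 64.8, the points of most genes lie side by side, and Pxdn is not drawn because its Ahr+/+ libraries had no counts.

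Genes of other tissues were at or near 0. Myt1l, a neuronal transcription factor, and Agr2, a disulfide isomerase of mucus-secreting cells, had 0 counts in all 6 libraries. Lamb1, a laminin chain, had 1, 0 and 0 counts in Ahr+/+ and 0, 1 and 0 in Ahr-/- libraries, and Nrcam, a neuronal adhesion protein, had 0, 0 and 1 against 0, 0 and 2. These 4 genes were too low to test, and at this depth a level below 3 counts per library cannot be seen.

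The libraries were first checked against their labels by genes that AhR is known to drive. Cyp1a1 had 4973, 5437 and 5327 normalized counts in Ahr+/+ and 6.87, 2.84 and 6.38 in Ahr-/- B cells, so every library matched its label. Tiparp, an ADP-ribosyltransferase induced by AhR, fell from 24015 ± 987 to 1218 ± 60.9 (SD, n = 3 mice per genotype). Ahr, on the minus strand of chr12:35497974-35535038 (GRCm38), had 12682, 12891 and 13953 normalized counts in Ahr+/+ and 8856, 8949 and 9717 in Ahr-/- B cells. Its groups did not overlap, and the log2 fold change was -0.52 (SE 0.047, adjusted p = 7.1e-06 from edgeR). A count over the whole gene takes in exons outside the deleted part, so the Ahr transcript level is no check of the labels.

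Across the table, 17.9% of the 13682 genes tested differed between genotypes at an adjusted p under 0.05 by edgeR's quasi-likelihood test. Among the neighbours of Ahr this held for 7 of 34, or 20.6%, a share near that of all genes. Of these 7, Pxdn was tested only because of its counts in Ahr-/- libraries. With a stricter filter, 10 counts or more in each of 3 libraries, which drops it, 6 of 30 members and 20.1% of all genes differed. Where the mean was 100 normalized counts or more, 5 of 26 members differed (19.2%), against 20.9% of all genes at that level. Of the 7, 3 were lower in Ahr-/- B cells (8.82% of the members tested, against 8.13% of all genes) and 4 were higher (11.8%, against 9.79%). For 14 of 34 members the normalized counts of the genotypes were apart, without overlap, and over all genes tested this was found for 33.5%. The median log2 fold change was -0.064 over the members and 0.0021 over all genes, and the median size without sign was 0.13 and 0.11. Where the mean was 100 normalized counts or more, this median size was 0.11 over the members and 0.077 over all genes. Only Dock4, among members with counts in both genotypes and an adjusted p under 0.05, came near a 2-fold difference. With 3 mice per genotype, an exact permutation test of a single gene cannot go below p = 0.1, which all 7 members and Ahr reached.

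**Figure D2:**
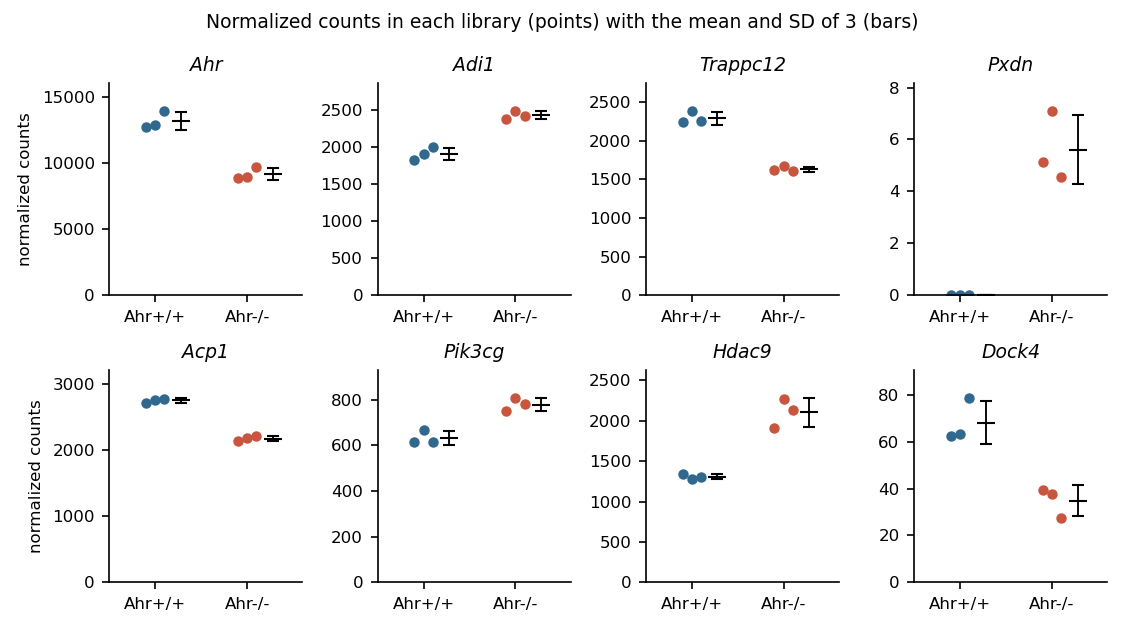
Normalized counts of Ahr and the 7 members that differed between genotypes, 1 point per library, with the mean and SD of 3 mice as bars and axes that start at 0. In each panel the Ahr+/+ (blue) and Ahr-/- (red) points do not overlap, and Pxdn, at 0 in Ahr+/+, reached 7.11 at most.

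Among the nuclear proteins, Hdac9 rose in the absence of AhR. Hdac9 encodes a histone deacetylase that represses MEF2 target genes, and it starts 0.618 Mb from the Ahr start, nearer than any other member that differed. It had 1338, 1279 and 1299 normalized counts in Ahr+/+ and 1914, 2267 and 2129 in Ahr-/- B cells. The lowest Ahr-/- library thus lay well above the highest Ahr+/+ library. The means were 1306 ± 30.3 and 2103 ± 178 (SD, n = 3 mice per genotype), a rise of 61.1%, with a log2 fold change of 0.70 (SE 0.057, adjusted p = 2.7e-06 from edgeR). Its window before the start, printed above, holds no core match.

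The other 7 tested nuclear proteins did not pass the test, so that 1 of 8 differed (12.5%, beside 17.9% of all genes). The closest was Cbll1, an E3 ubiquitin ligase, with 1980, 1908 and 1920 normalized counts in Ahr+/+ and 1704, 1700 and 1869 in Ahr-/- B cells. Its groups did not overlap, yet the adjusted p was 0.06 at a log2 fold change of -0.14 (SE 0.046, edgeR). Cbll1 passed when no filter on low counts was used (adjusted p = 0.046 from edgeR) and when Ahr-/- replicate 3 was left out (log2 fold change -0.19, adjusted p = 0.0098 from edgeR). Zfp277, a zinc finger protein, and Ifrd1, a transcriptional co-regulator, had log2 fold changes of -0.12 and -0.13 (adjusted p = 0.11 each from edgeR). Twistnb, a subunit of RNA polymerase I, and Hbp1, an HMG-box repressor, had -0.081 and 0.048. Atxn7l1 varied more between mice, with 272 to 381 normalized counts in Ahr+/+ and 236 to 314 in Ahr-/- B cells. The ETS factor Etv1 was barely counted, with 0, 0 and 7 counts against 0, 2 and 2.

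Of the signalling and cytoskeletal genes 2 of 6 differed, in opposite directions, beside 17.9% of all genes, and a group of 6 is too small to read a share from. Dock4, an exchange factor that activates small GTPases, had 62.2, 63.4 and 78.6 normalized counts in Ahr+/+ and 39.5, 37.7 and 27.4 in Ahr-/- B cells. All 3 Ahr-/- libraries were below the Ahr+/+ libraries. The mean dropped from 68.1 ± 9.17 to 34.8 ± 6.54 (SD, n = 3 mice per genotype), and edgeR gave a log2 fold change of -0.98 (SE 0.21, 95% interval -1.42 to -0.53, adjusted p = 0.0051). The interval is wide and the level was low. Pik3cg encodes a catalytic subunit of PI3-kinase that acts downstream of G protein-coupled receptors. Its normalized counts were 615, 666 and 614 in Ahr+/+ and 750, 808 and 780 in Ahr-/- B cells. The genotypes were again apart, with means of 632 ± 29.7 and 779 ± 29.1 (SD, n = 3 mice per genotype), and the log2 fold change was 0.31 (SE 0.059, adjusted p = 0.0028 from edgeR).

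Scin, an actin-severing protein known as an AhR target in other lymphocytes, did not pass the test in these cells. It had 43.7, 43.3 and 74.1 normalized counts in Ahr+/+ and 60.1, 45.5 and 35.6 in Ahr-/- B cells, so the groups overlapped. The log2 fold change was -0.23 with a 95% interval from -0.79 to 0.34 (adjusted p = 0.62 from edgeR), which leaves room for a moderate difference either way. Prkar2b, a regulatory subunit of protein kinase A, was as low and as variable, with 12.6 to 25.8 normalized counts in Ahr+/+ and 21.9 to 32.0 in Ahr-/- B cells, at a log2 fold change of 0.49 (adjusted p = 0.32 from edgeR). This value was 0.23 without Ahr+/+ replicate 1 and 0.69 without Ahr+/+ replicate 3. Bzw2 was measured closely, and its log2 fold change of -0.014 had an SE of 0.036.

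Of the 8 enzymes, Acp1 and Adi1 differed (25.0%, beside 17.9% of all genes). Acp1, the low molecular weight protein tyrosine phosphatase, had 2705, 2762 and 2777 normalized counts in Ahr+/+ and 2130, 2180 and 2208 in Ahr-/- B cells. This was among the tightest differences of the list, since replicates spread by 38.0 and 39.7 (SD, n = 3 mice per genotype) around means of 2748 and 2173. The log2 fold change was -0.34 (SE 0.037, adjusted p = 3.2e-05 from edgeR). Adi1, a dioxygenase of the methionine salvage pathway, had 1833, 1903 and 1997 normalized counts in Ahr+/+ and 2384, 2493 and 2415 in Ahr-/- B cells. It was higher without AhR in every library, by 27.2% on average, with a log2 fold change of 0.35 (SE 0.042, adjusted p = 7.8e-05 from edgeR).

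The other 6 enzymes did not pass the test. Nampt, the rate-limiting enzyme of NAD salvage, had 12438 to 13776 normalized counts in Ahr+/+ and 11566 to 13614 in Ahr-/- B cells, with a log2 fold change of -0.037 (SE 0.057). Dld had -0.074 (SE 0.046). Rnaseh1, which cuts RNA in hybrids with DNA, had 0.048 (SE 0.041), and the phospholipase Pnpla8, the farthest tested member at 8.69 Mb, had -0.019 (SE 0.042). Immp2l, a peptidase of the mitochondrial inner membrane, had 0.016 (SE 0.14) from about 100 normalized counts per library. Dus4l, which modifies tRNA, had 1472, 1323 and 1425 normalized counts against 1239, 1292 and 1291, without overlap, but its adjusted p was 0.077 (log2 fold change -0.14, edgeR). Without Ahr+/+ replicate 2 Dus4l passed, at a log2 fold change of -0.18 (adjusted p = 0.025 from edgeR).

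Among the genes of vesicle traffic and membranes, Trappc12 differed (11.1% of those tested, beside 17.9% of all genes) and the other 8 did not pass the test. Trappc12 is a subunit of the TRAPP complex, which tethers vesicles. It had 2242, 2392 and 2253 normalized counts in Ahr+/+ and 1625, 1671 and 1604 in Ahr-/- B cells. The Ahr-/- libraries were all lower, and the mean dropped from 2295 ± 83.4 to 1633 ± 34.4 (SD, n = 3 mice per genotype), and edgeR gave a log2 fold change of -0.49 (SE 0.042, adjusted p = 3.9e-06). Cog5, part of a Golgi tethering complex, had 1736, 1836 and 1828 normalized counts against 1941, 1960 and 1930. These values did not overlap either, and the log2 fold change was 0.11 (SE 0.04, adjusted p = 0.077 from edgeR). It passed only where libraries were scaled by their size alone (adjusted p = 0.033 from edgeR). Arl4a, a small GTPase, had a log2 fold change of -0.18 (adjusted p = 0.11) and Tspan13, a tetraspanin, one of -0.12 (adjusted p = 0.16, both from edgeR). Snx13, which starts 0.488 Mb from the Ahr start, had 1458, 1411 and 1542 normalized counts against 1502, 1460 and 1477, with a log2 fold change of 0.0083 (SE 0.046). Sypl, a vesicle membrane protein, and Bcap29, of the endoplasmic reticulum, had 0.031 and -0.0028.

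Matrix and adhesion genes were near or at the floor. Pxdn encodes peroxidasin, which cross-links collagen of basement membranes. It had 0 counts in every Ahr+/+ library and 3, 10 and 5 counts in the Ahr-/- libraries (adjusted p = 0.0058 from edgeR). All of its counts are from Ahr-/- libraries, so it entered the test only through the genotype in which it was higher, and its call is no support for a difference among the members. Set against the floor of 3 counts in each Ahr+/+ library, the mean of Pxdn in Ahr-/- B cells was 1.81-fold higher. Counting error is left out of this value, so it is no lower bound. Without Ahr-/- replicate 2 the total of Pxdn was under 10 counts and it was not tested. With so few counts the fitted fold change has no meaning as a size. Colec11, a secreted lectin, had 6, 2 and 4 counts against 0, 4 and 6, and Lrrn3, a leucine-rich repeat protein, had 6, 1 and 3 against 1, 4 and 2, with overlap in both.

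For the members that did not pass the test, the data bound how large a difference could be. There were 27 of them, 21 whose mean was 100 normalized counts or more. Among these 21 the log2 fold changes lay between -0.26 and 0.13, and the 95% interval stayed within 0.5 of 0 for 20. The exception was Atxn7l1, whose interval reached -0.55. Both ends of the range moved with single libraries: Atxn7l1, at -0.26, was at -0.39 without Ahr+/+ replicate 1, -0.15 without Ahr+/+ replicate 2 and -0.14 without Ahr-/- replicate 3, and Tssc1, at 0.13, was at 0.075 without Ahr-/- replicate 2. Of the 27, 8 had an unadjusted p under 0.05, 6 of them lower and 2 higher in Ahr-/- B cells (29.6%, against 14.0% of all genes that did not pass). All 8 were among the 21, while the 14.0% takes in tested genes at every level. The 2 shares are not matched for level.

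Head-to-head neighbours were then compared, since genes of such pairs can share a start region. There were 5 pairs with starts within 2 kb. In 3 of them 1 gene passed the test and its partner did not. Trappc12 was lower, while Tssc1, which acts in endosome recycling and starts 1331 bases away, had 1145, 1170 and 1086 normalized counts in Ahr+/+ and 1171, 1321 and 1214 in Ahr-/- B cells (log2 fold change 0.13, adjusted p = 0.14 from edgeR). Dock4 was lower by 0.98 on the log2 scale, and Zfp277, 50 bases away, was at -0.12. Acp1 was at -0.34 and Sh3yl1, an adaptor protein 79 bases away, at -0.33, but Sh3yl1 had only 19.2 to 28.2 normalized counts and an SE of 0.25 (adjusted p = 0.42 from edgeR). Dus4l and Cog5, 43 bases apart, were at -0.14 and 0.11, each without overlap of the genotypes. Bzw2 and Ankmy2, whose annotated 5′ ends overlap by 966 bases, were at -0.014 and -0.054. The difference within a pair was not tested. Adi1 and Trappc12, close neighbours at 6.86 and 6.78 Mb from the Ahr start, changed in opposite directions.

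Some of these counts are uncertain for another reason. Among pairs of members, Cog5 overlaps Hbp1, Bzw2 overlaps Ankmy2, and Immp2l overlaps Lrrn3, each on opposite strands. Atxn7l1 and some other members overlap genes off the list on the opposite strand, for Atxn7l1 the genes Atxn7l1os1 and Atxn7l1os2. The sources used here do not say if reads were counted by strand. Of the members that differed, Acp1 overlaps Fam150b on the opposite strand, which had 0 counts in every library. The genes annotated within Hdac9 had no row in the table.

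The members were then ordered by distance from the Ahr start. Within 2.5 Mb, 1 of 7 members tested differed (Hdac9). From 2.5 to 5 Mb it was 3 of 18 (Acp1, Pik3cg and Dock4), and from 5 to 10 Mb 3 of 9 (Adi1, Trappc12 and Pxdn). These shares were 14.3%, 16.7% and 33.3%, beside 17.9% of all genes, and each rests on few genes. The last band has 2 such members, not 3, where Pxdn has no adjusted p, under the stricter filter, under DESeq2 and without Ahr-/- replicate 2. F730043M19Rik, which is not on the list, also differed within 2.5 Mb and is described below. Of the chromosome 12 genes 10 to 20 Mb away, 21 of 48 differed (43.8%). Beyond 20 Mb it was 73 of 356 (20.5%) and on other chromosomes 2331 of 13045 (17.9%). No test of these shares was made, since neighbouring genes are not independent.

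**Figure D3:**
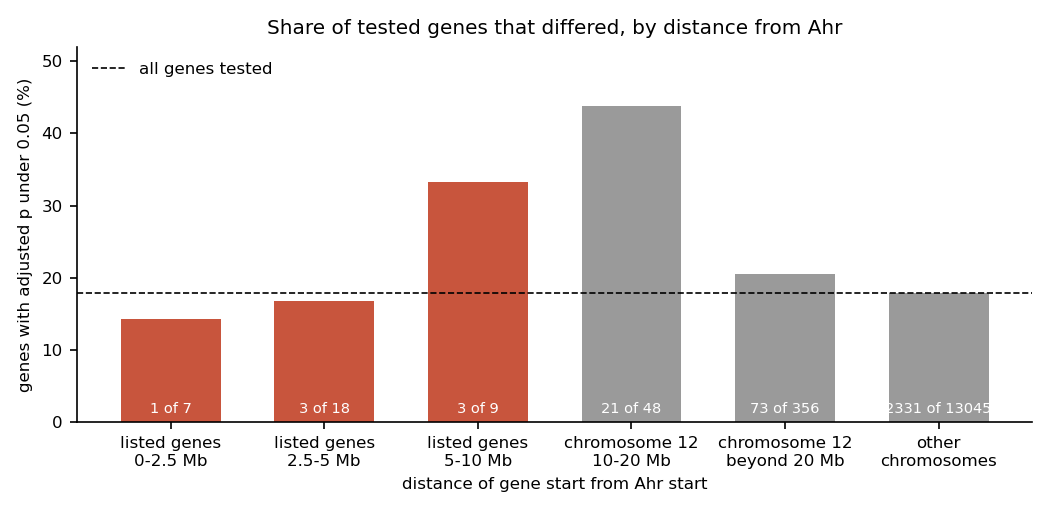
Percent of tested genes with an adjusted p under 0.05 by distance of the gene's start from the Ahr start, for listed members (red) and other genes (grey), with the numbers of genes in the bars. The dashed line is the 17.9% of all genes tested, and the highest bar is that of genes 10 to 20 Mb away.

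The members were also split by the side of Ahr on which they lie. Toward the start of the chromosome 6 of 22 members tested differed (27.3%, against 17.9% of all genes), with log2 fold changes below 0 for 11 and above 0 for 11. Both the 6 and the 11 above 0 include Pxdn, which was tested only because of its counts in Ahr-/- libraries. Toward its end 1 of 12 differed (8.33%), Dock4, and 11 of 12 log2 fold changes were below 0, the exception being Immp2l at 0.016. With scaling by library size alone only 9 of 12 were below 0, where Bzw2 and Pnpla8 turned. That scaling also moved the median over all genes from 0.0021 to 0.027. Without Ahr+/+ replicate 3, 9 of 11 were below 0. With all libraries and the scaling used elsewhere, 6752 of 13682 genes were below 0. Among chromosome 12 genes 10 to 20 Mb away on the same side 13 of 22 were. Most log2 fold changes of the 12 members toward the chromosome end were small, with a median of -0.12. This pattern was seen after the values were known and was not tested.

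**Figure D4:**
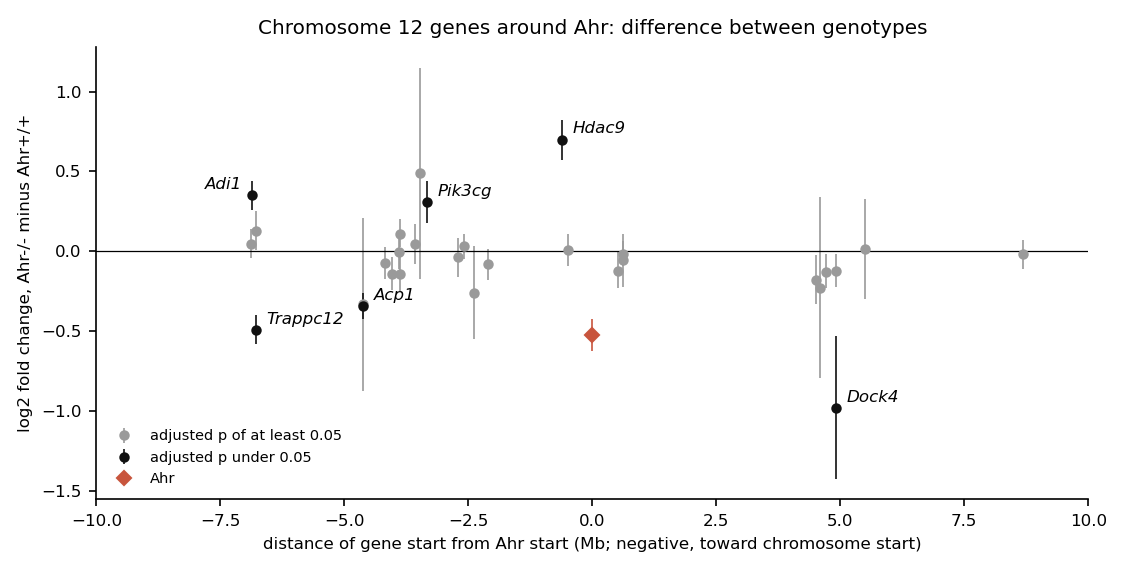
Log2 fold change of Ahr-/- against Ahr+/+ with its 95% interval, by distance of each gene's start from the Ahr start in Mb, for tested members whose mean was 10 normalized counts or more and for Ahr (diamond). Black points passed an adjusted p of 0.05, and they lie at both signs and on both sides of Ahr between -0.98 for Dock4 and 0.70 for Hdac9.

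The same stretch holds genes that were not on the list. With these, 52 genes within 10 Mb were tested, and 10 differed, 5 lower and 5 higher. This is 19.2%, near the 17.9% of all genes, of which 8.13% were lower and 9.79% higher. The 3 unlisted genes among the 10 were named after their values were seen. Rnf144a, a ubiquitin ligase 9.12 Mb away, had 259, 264 and 250 normalized counts in Ahr+/+ and 125, 111 and 92.1 in Ahr-/- B cells (log2 fold change -1.26, adjusted p = 1.1e-05 from edgeR). Tmem18, a protein of the nuclear membrane, had 337, 356 and 385 against 551, 562 and 515 (log2 fold change 0.60, adjusted p = 1.0e-04 from edgeR). F730043M19Rik, 2.39 Mb away beside the start of Atxn7l1, had 22.3, 31.2 and 25.8 against 1.72, 5.69 and 4.56 (log2 fold change -2.53, adjusted p = 4.2e-04 from edgeR). Genotypes did not overlap for any of the 3.

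Some markers of other cell types differed between genotypes as well. In bulk samples, fewer cells of a type cannot be told apart from less RNA per cell. Over all genes tested, 17.9% differed, 8.13% lower and 9.79% higher. Most of the marker lists are too short to read a share from. Of 7 plasmacytoid dendritic cell markers, all 7 passed the test as higher in Ahr-/- B cells, and their summed normalized counts rose from between 1653 and 1797 to between 2659 and 2794. Of 5 B-cell markers 4 were higher, with sums of 62073 to 65180 in Ahr+/+ and 74182 to 77537 in Ahr-/- B cells. Conventional dendritic cell markers gave 4 of 7 higher and 1 lower (sums 810 to 933 against 872 to 1057), and macrophage and monocyte markers 1 of 7 each way (1186 to 1463 against 594 to 1073). Of 4 NK markers 2 were higher (145 to 239 against 231 to 359), of 6 T-cell markers 1 was lower (142 to 275 against 156 to 165), and 0 of 4 neutrophil markers differed, with wide sums of 103 to 332 against 119 to 456. The listed markers Adgre1, Trac, Ly6g and Hbb-bs had no row among the counts. Of the markers with a row, only Hba-a1 was at 0 in all libraries. It is 1 of the red cell genes, whose summed counts lay between 2.91 and 17.1. What part these shifts have in the values of low genes such as Dock4 and Pxdn, or in that of Hdac9, was not tested.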

How the data were processed

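RNA was measured in splenic B cells of 3 Ahr+/+ and 3 Ahr-/- mice. The authors deposited read counts per gene without normalization, and the submitters' processing notes name TopHat2, HTSeq, DESeq and the build mm10. Whether counting used strand is not given in the sources used here. Their normalized counts and their own comparison (fold changes and p-values) were not used. Counts were fitted in R 4.3.3 with edgeR 4.0.16 (TMM, a minimum of 10 counts summed over 6 libraries, prior count 0.125, quasi-likelihood test, Benjamini-Hochberg over all 13682 genes, threshold 0.05). SE is the log2 fold change divided by the square root of F, and intervals are 95%. The script was tested on simulated data. Normalized counts are counts divided by TMM-scaled library size relative to the mean library. Symbols were placed with GENCODE M21 (GRCm38), where 22969 of 23418 symbols had a position, and levels per length use its exons. Replicates of a genotype differed by more than sampling noise (chi-square per degree of freedom 3.98 to 9.4, against 24.8 to 45.9 between genotypes). Total counts lay between 22095096 and 53648787.

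The members and gene lists were chosen with earlier results of these data known. Values by library were given for members that passed the test, up to 12 by size of change among those whose higher genotype averaged 10 normalized counts or more, and for Ahr. Members that did not pass are named by role, with values by library for some chosen after their values were seen. Pxdn is given in counts. Alternatives were DESeq2 1.42.0, other scalings, filters, a larger prior count, a replicate block, a threshold of 0.01, other windows, and leaving out each library.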

Additional observations from a re-analysis of the deposited data

How the results depend on the processing

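Each of the 7 members that passed the test kept its direction and its call in every one of the 88 alternatives that gave it an adjusted p. These include the larger prior count, which changes the fold change but not the p-value, so its calls could not differ. Pxdn could not be tested with at least 10 counts in at least 3 libraries or without Ahr-/- replicate 2, and DESeq2 gave it no adjusted p. The number of members lower in Ahr-/- B cells was 3, and it lay between 3 and 4 with each library left out. It was 5 when all genes within 10 Mb were counted. The number higher was 4, between 3 and 4 with a library left out, and 2 among members within 5 Mb of Ahr only. With scaling by library size alone Cog5 also passed, without a filter and without Ahr-/- replicate 3 Cbll1 also passed, and without Ahr+/+ replicate 2 Dus4l also passed. The labels do not say if replicate numbers pair the mice. Correlations were -0.115, 0.235 and -0.147 between same-numbered libraries and -0.337 to 0.36 between the others, which does not settle it. With the number as a replicate block 3 members were lower and 4 higher. The log2 fold change of Ahr lay between -0.567 and -0.480 with a library left out. Of 342 alternatives for members that did not pass, 15 turned the sign of 9 members that were near 0 or low. Library size alone gave 0.023 for Bcap29, 0.011 for Bzw2 and 0.006 for Pnpla8, and the replicate block gave 0.0016 for Bcap29. Scaling by library size alone also moved the median over all genes from 0.0021 to 0.027. With each library left out the values ran from -1.007 to 0.011 for Colec11, from -0.055 to 0.053 for Bcap29, from -0.095 to 0.018 for Nampt, from -0.021 to 0.042 for Snx13, from -0.032 to 0.0018 for Bzw2, from -0.383 to 0.069 for Scin, from -0.104 to 0.110 for Immp2l and from -1.011 to 0.082 for Lrrn3. Some other small values that did not pass kept their sign but also moved by over 1.5 times with a library left out, among them from 0.013 to 0.104 for Hbp1, from -0.122 to -0.05 for Twistnb, from -0.104 to -0.035 for Dld and from -0.113 to -0.015 for Ankmy2. The cause of these turns was not tested. Depth limits the members with few counts, such as Etv1, Colec11, Lrrn3 and Pxdn.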
